A study of Mus musculus with 5 samples.

Results

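The enzymes that write, maintain and remove methylation of cytosine in DNA were followed across 5 libraries of mouse haematopoietic stem cells. The set was fixed by gene symbol and holds 8 genes of the 35976 in the count table: the methyltransferases Dnmt1, Dnmt3a and Dnmt3b, the ubiquitin ligases Uhrf1 and Uhrf2, and the dioxygenases Tet1, Tet2 and Tet3. All 8 were rows of the table, and all 8 were among the 11146 genes that passed the filter on low counts. The stem cells came from the bone marrow of C57BL/6 mice and were sorted as lineage negative, Sca-1 and c-kit positive, CD34 negative and CD150 positive, 30 cells to a library. The sample labels give 2 libraries from WT mice and 3 from Ythdf3-/- mice. The labels name no treatment and no age, and do not describe the Ythdf3 allele. The series text counts the genotypes the other way round (2 knockout and 3 wild type) and states that the 5 samples are 5 different mice, so replicates are animals.

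DNA methylation in mammals is kept by a division of labour. DNMT3A and DNMT3B place new methyl groups, while DNMT1 copies the pattern onto the new strand after replication, guided there by UHRF1, which binds DNA methylated on one strand only. UHRF2 is its close relative. TET1, TET2 and TET3 oxidise methylated cytosine, a step that can end in its replacement by an unmodified base. Loss of Dnmt3a or Tet2 is known to expand blood stem cells in mice.

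Dnmt1 and Uhrf1, the maintenance pair, each had 1 start site with a feature absent from all other start sites of the members, including their own. In the RefSeq promoter windows of GRCm38.p6 (mm10), which run from 250 bases before to 50 after a start site, the E2F-type letters TTTCGCGC were searched on both strands. They occurred in 0.323% of 32851 windows and in 2 of the 13 windows that belong to the 8 genes, 1 of Dnmt1 and 1 of Uhrf1. The 30 bases around each match are shown, 5′ to 3′ along the gene, with the match in capitals; in Dnmt1 it is read on the opposite strand. The Dnmt1 stretch is chr9:20952824-20952853 on the minus strand and lies in an annotated exon. The Uhrf1 stretch is chr17:56304117-56304146 on the plus strand and lies outside annotated exons.
Dnmt1: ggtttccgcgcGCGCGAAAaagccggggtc
Uhrf1: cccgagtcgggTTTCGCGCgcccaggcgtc

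A related E2F-type string, TTTGGCGC, was present in 0.514% of all windows and in the same Dnmt1 window alone among the 13. The letters CCAAT occurred in 37.4% of all windows and in windows of Dnmt1, Uhrf1 and Tet3. CACGTG, an E-box, occurred in 7.15% of all windows and in 1 of Dnmt3a. A match describes the letters only and does not show that a factor binds there.

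The 250 bases before the Uhrf1 start site that has the E2F-type match (chr17:56304063-56304312, plus strand) are given with the match in capitals. Those before the first Dnmt3a start site (chr12:3806730-3806979, plus strand) follow. Uhrf1 was among the members whose counts varied most between libraries, and Dnmt3a varied least. Uhrf2 and Tet3, with no E2F-type match, ranged 166-fold and 250-fold in CPM, against 112-fold for Uhrf1. Dnmt1, which has a match, ranged 13.2-fold. A link between these letters and the spread was not tested.
Uhrf1: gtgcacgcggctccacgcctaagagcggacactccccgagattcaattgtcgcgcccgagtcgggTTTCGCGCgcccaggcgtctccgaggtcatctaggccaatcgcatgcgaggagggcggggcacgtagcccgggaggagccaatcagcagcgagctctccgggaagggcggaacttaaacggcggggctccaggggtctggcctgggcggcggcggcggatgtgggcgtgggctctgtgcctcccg
Dnmt3a: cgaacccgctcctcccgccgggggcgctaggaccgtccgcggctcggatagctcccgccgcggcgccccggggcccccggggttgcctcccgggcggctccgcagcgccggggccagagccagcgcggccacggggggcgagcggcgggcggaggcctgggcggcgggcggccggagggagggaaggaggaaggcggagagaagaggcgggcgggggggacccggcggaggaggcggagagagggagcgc

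The whole 300-base windows of these start sites hold 33 CpG in Uhrf1 and 46 in Dnmt3a, against a median of 7 over all windows. The Tet2 window was the densest of the 13, with 57 CpG, more than 99.8% of all windows. Methylation itself was not measured in these libraries.

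Total counts per library ran from 6357862 to 16650134, and levels are given as CPM, the count scaled to the library's total. Ythdf3, the targeted gene, did not follow the labels. Both libraries labelled WT held few reads of it (20 and 29), whereas those with the Ythdf3-/- label held 2, 339 and 366. The difference in Ythdf3 was within the spread of the libraries (exact permutation test, two-sided, p = 0.6, where 0.2 is the smallest that 10 arrangements allow). Group names below therefore stand for the labels alone. Between 12 and 14 of the 14 markers of haematopoietic stem cells reached 10 CPM in every library. Markers of other cells were uneven. The 14 erythroid markers summed to 37880 CPM in the library labelled Ythdf3-/- 1 and to between 1973 and 3198 CPM elsewhere. In the library labelled WT 2, 13 of these 14 reached 10 CPM, among them Gata1 with 1061 counts against at most 6 in the others. The 11 B lymphoid markers summed to 564.4 and 1475 CPM in the libraries labelled WT 1 and Ythdf3-/- 1 and to at most 219.9 CPM elsewhere. The sums of 2 further marker lists did not overlap between the labels. Among their tested genes, 1 of 3 T and NK and 2 of 5 megakaryocyte markers did not overlap, against 20.7% of all tested genes. The 9 T and NK markers, 4 of them at 0 in every library, summed to 2.46 and 10.5 CPM with the WT label against 93.1, 92.9 and 30.5 CPM. The 8 megakaryocyte markers summed to 317.5 and 186.3 CPM against 42.3, 121.1 and 113.9 CPM. The part of these marker levels in the differences between labels was not tested. In bulk libraries, fewer cells that express a gene and less RNA per cell cannot be told apart.

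**Figure D1:**
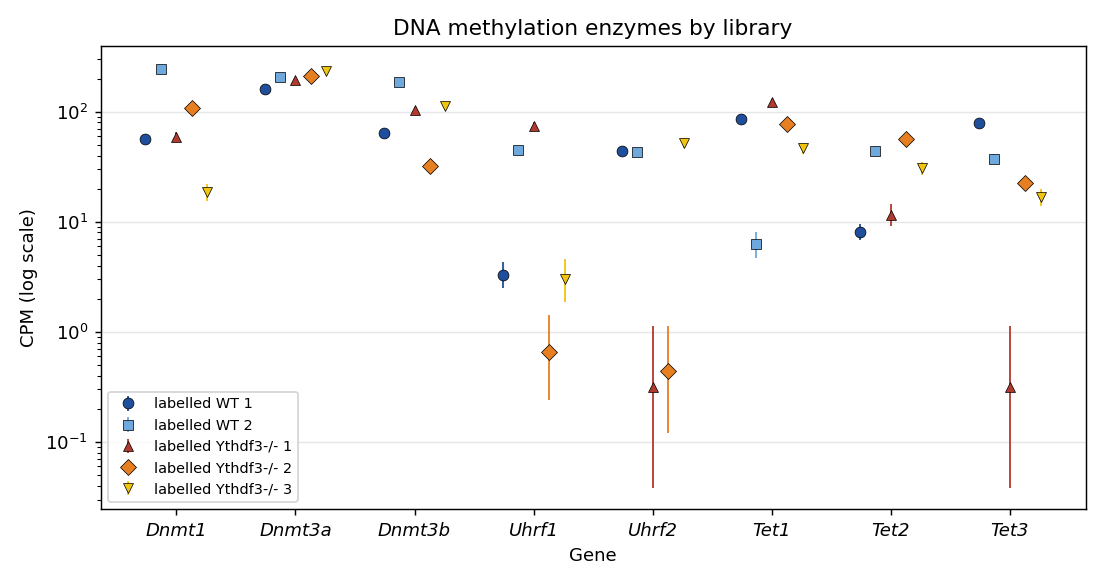
CPM of each enzyme gene in each library (log axis), with exact 95% binomial intervals that cover counting error only. Dnmt3a lies between 162.1 and 232 CPM in all 5 libraries, whereas Uhrf1, Uhrf2 and Tet3 fall under 1 CPM in at least 1 library.

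Dnmt3a, which encodes the main de novo methyltransferase of adult stem cells, was read at nearly the same level in every library. Dnmt3a counts were 2699 in the library labelled WT 1 (162.1 CPM) and 1842 in the one labelled WT 2 (205.4 CPM). The 3 libraries labelled Ythdf3-/- had 1225, 1928 and 1628 counts (192.7, 212.4 and 232 CPM). The groups overlapped, and the highest library stood 1.43-fold over the lowest. Libraries with the WT label averaged 183.7 ± 30.6 CPM (SD, n = 2), and the remaining ones 212.4 ± 19.7 CPM (SD, n = 3).

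The other de novo enzyme, Dnmt3b, was less even. Dnmt3b stood at 63.7 CPM (1061 counts) in the library labelled WT 1 and 184.8 CPM (1657 counts) in the one labelled WT 2. The libraries labelled Ythdf3-/- 1, 2 and 3 had 103.2, 32.3 and 111.6 CPM, from 656, 293 and 783 counts. The highest and the lowest library, labelled WT 2 and Ythdf3-/- 2, were 5.72-fold apart and the groups overlapped. Dnmt3l, the catalytically inactive partner of the de novo enzymes, had 0 counts in all 5 libraries.

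Dnmt1, the maintenance methyltransferase, peaked in the library labelled WT 2. There it had 2190 counts (244.2 CPM), against 946 counts (56.8 CPM) in the other library labelled WT. Those labelled Ythdf3-/- 1, 2 and 3 had 374, 972 and 130 counts (58.8, 107.1 and 18.5 CPM). Its range was thus 13.2-fold, with overlap between the groups.

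Uhrf1, which brings DNMT1 to replicating DNA, was read in abundance in 2 libraries, 1 of each label. It had 400 counts in the library labelled WT 2 (44.6 CPM) and 470 in that labelled Ythdf3-/- 1 (73.9 CPM). In the libraries labelled WT 1, Ythdf3-/- 2 and Ythdf3-/- 3 it had 55, 6 and 21 counts (3.3, 0.661 and 2.99 CPM). The 95% interval for 6 counts, 0.243 to 1.44 CPM, stays below all 4 other libraries. Uhrf1 in the lowest library was 112-fold under the highest, both of them labelled Ythdf3-/-.

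Uhrf2 had another pattern. It was nearly equal in the 2 libraries labelled WT, with 725 and 382 counts (43.5 and 42.6 CPM). Of the libraries labelled Ythdf3-/-, number 3 had 366 counts (52.2 CPM), while numbers 1 and 2 had 2 and 4 counts (0.315 and 0.441 CPM). It was thus high in 3 libraries and nearly absent from 2, which both carry the Ythdf3-/- label. In the library labelled Ythdf3-/- 1, Uhrf1 took 99.6% of the family's CPM per kb of exon, and in that labelled Ythdf3-/- 3, Uhrf2 took 94.8%. The library labelled Ythdf3-/- 2 held 10 counts of both genes together.

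Among the dioxygenases, Tet1 was low in 1 library only. It had 56 counts in the library labelled WT 2 (6.24 CPM) against 1439 in that labelled WT 1 (86.4 CPM). The libraries labelled Ythdf3-/- 1, 2 and 3 had 775, 702 and 327 counts (121.9, 77.3 and 46.6 CPM). The groups overlapped, with a range of 19.5-fold.

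Tet2, mutated in many human blood cancers, was low in 2 libraries of different label. It had 135 counts in the library labelled WT 1 (8.11 CPM) and 74 in that labelled Ythdf3-/- 1 (11.6 CPM). The library labelled WT 2 had 398 counts (44.4 CPM), and those labelled Ythdf3-/- 2 and 3 had 511 and 214 (56.3 and 30.5 CPM). Tet2 ranged over 6.94-fold and its groups overlapped.

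Tet3 was the 1 member whose groups did not overlap. Tet3 counts were 1307 (78.5 CPM) and 334 (37.2 CPM) with the WT label. Those labelled Ythdf3-/- 1, 2 and 3 had 2, 206 and 117 counts (0.315, 22.7 and 16.7 CPM), all below both libraries labelled WT. Such a separation with lower values under the Ythdf3-/- label was found for 11% of all tested genes and the opposite order for 9.74%, together 20.7%. With 1 of 8 members, the set is near that background. The number of members without overlap was 4 when the library labelled WT 1 was left out and 3 without WT 2, where 52.6% and 47.4% of all tested genes did not overlap. It was 3 without Ythdf3-/- 1 (34.4% of tested genes), 1 without Ythdf3-/- 2 (33.3%) and 2 without Ythdf3-/- 3 (33.3%). With both WT 2 and Ythdf3-/- 1 left out it was 5, against 66% of tested genes. Mean Tet3 was 57.9 ± 29.2 CPM (SD, n = 2) with the WT label, and 13.2 ± 11.6 CPM (SD, n = 3) with the other.

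**Figure D2:**
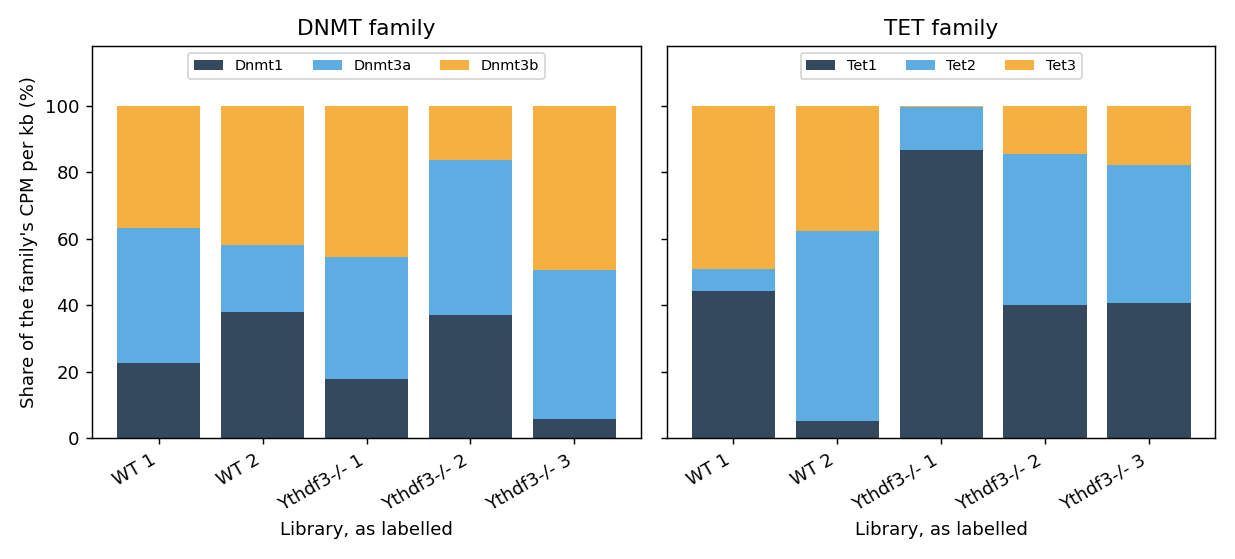
Share of each gene in the summed CPM per kb of exon of the DNMT family (left) and the TET family (right), by library as labelled. Dnmt3a or Dnmt3b leads the DNMT family in every library, while the leading TET gene is Tet3 in the library labelled WT 1, Tet1 in that labelled Ythdf3-/- 1 and Tet2 in the other 3.

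Levels of different genes were compared per kilobase of exon, with the union of exons in the GENCODE basic annotation. The order of the mean CPM per kb over the 5 libraries was Dnmt3b (22.9 ± 13.3), Dnmt3a (20.3 ± 2.62), Dnmt1 (15.4 ± 14.0), Uhrf2 (7.87 ± 7.16) and Uhrf1 (6.84 ± 8.97; SD, n = 5 for each). Below these came Tet1 (4.71 ± 3.03), Tet2 (3.28 ± 2.25) and Tet3 (2.65 ± 2.52; SD, n = 5). No gene differed from its neighbour in this order by more than the larger of their SDs. With the longest coding transcript in place of the exon union the order of the 8 genes was the same.

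The 3 methyltransferases together exceeded the 3 dioxygenases in 5 of 5 libraries. Summed CPM per kb of the DNMT genes was 40.1 and 102.2 with the WT label, against 52.6, 45.9 and 52.1 with the Ythdf3-/- label. For the TET genes it was 13.6 and 8.43, and 9.77, 13.4 and 7.98. The ratio of the 2 families ran from 2.95 in the library labelled WT 1 to 12.1 in that labelled WT 2, so libraries of 1 label spanned the whole range.

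Summed TET CPM varied 1.97-fold between libraries, from 87.9 to 173 CPM, although single TET genes varied between 6.94-fold (Tet2) and 250-fold (Tet3). The summed DNMT CPM varied 2.24-fold, less than Dnmt1 (13.2-fold) and Dnmt3b (5.72-fold) but more than Dnmt3a (1.43-fold). Under the Ythdf3-/- label the summed DNMT CPM was 354.7, 351.8 and 362.1 in the 3 libraries. Under the WT label it was 282.6 and 634.4, on either side of these. Within the TET family, Tet1 supplied 86.8% of the CPM per kb in the library labelled Ythdf3-/- 1 and 5.15% in that labelled WT 2. Tet2 supplied 57.2% in the library labelled WT 2 and 6.49% in that labelled WT 1.

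**Figure D3:**
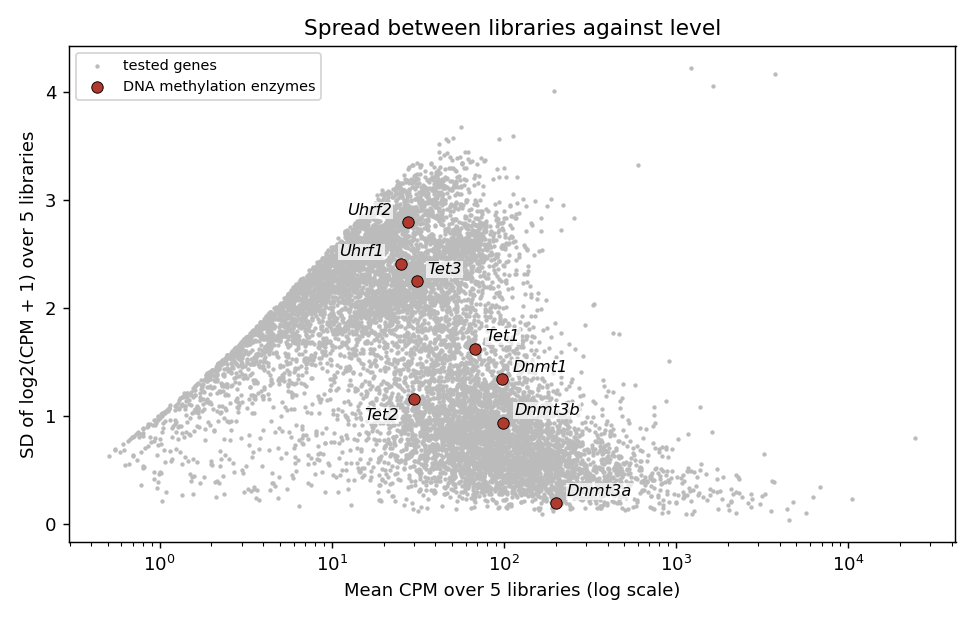
SD of log2(CPM + 1) over the 5 libraries against mean CPM (log axis) for every tested gene (grey) and the 8 enzymes (red). Dnmt3a lies at the lower edge of the cloud with an SD of 0.192, and the UHRF genes and Tet3 lie above 2.

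Spread between libraries was set against that of all tested genes within 2-fold of the same mean CPM. The SD of log2(CPM + 1) of Dnmt3a was 0.192, where the median of 2022 genes of like level was 0.656, and 1.63% of them had a smaller value. No other member stood so low. Dnmt3b (0.936), Tet3 (2.25), Tet1 (1.62), Uhrf1 (2.41) and Dnmt1 (1.34) were higher than between 52.5% and 70.7% of genes of like level. Uhrf2 (2.79) was higher than 86.9% of them and Tet2 (1.16) higher than 23.7%. Apart from Dnmt3a, the members therefore lay well inside the range of genes of like level.

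**Figure D4:**
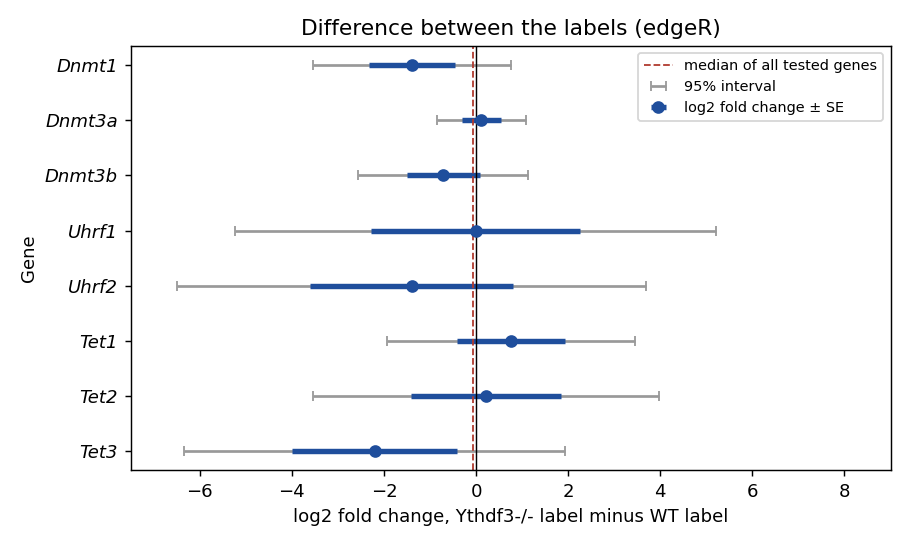
Log2 fold change between the labels for the 8 enzymes from edgeR, with SE (thick) and 95% interval (thin); the dashed line is the median of all tested genes. Every interval spans 0, and that of Dnmt3a is the narrowest of the 8.

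The study's labels set Ythdf3-/- against WT, YTHDF3 being a reader of N6-methyladenosine in RNA, but the Ythdf3 counts do not follow them, so the comparison is one of labels. None of the 8 genes passed the edgeR quasi-likelihood test (adjusted p = 0.9998 for each), as 0% of all tested genes did. None of the 8 had an unadjusted p under 0.05 either, against 4.85% of tested genes, and 0 were called by DESeq2 (4.41% of the 13469 genes it gave an adjusted p) or limma voom (0% of 11146). Of the 8, 3 had a higher and 5 a lower fitted level under the Ythdf3-/- label, with a median log2 fold change of -0.36 against -0.063 over all tested genes. Leaving out the library labelled WT 2 moved the members' median to 0.21 and that of all tested genes to 0.22. Leaving out WT 1 moved them to -1.11 and 0.31.

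The width of the intervals differed by gene. For Dnmt3a the log2 fold change was 0.11 (SE 0.42) with a 95% interval from -0.85 to 1.08, the narrowest of the 8. The estimates for Dnmt1 (-1.39, SE 0.93, interval -3.54 to 0.75) and Dnmt3b (-0.71, SE 0.80, interval -2.55 to 1.14) rested on the library labelled WT 2. Without it they were 0.079 and 0.33. Uhrf1 and Uhrf2 had log2 fold changes of -0.0084 (SE 2.27) and -1.40 (SE 2.21), with intervals from -5.24 to 5.22 and from -6.49 to 3.69. Uhrf1 went to 2.90 without the library labelled WT 2 and to -3.79 without that labelled Ythdf3-/- 1. For Uhrf2 the value was -6.85 without the library labelled Ythdf3-/- 3 and -0.78 without that labelled Ythdf3-/- 1.

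Tet3 had the largest fitted difference of the set, a log2 fold change of -2.20 (SE 1.80, interval -6.34 to 1.94). Without any 1 library it lay between -2.86 and -1.61. Because the Tet3 groups do not overlap, a kept sign there adds little to that separation. Tet1 had 0.77 (SE 1.17) and Tet2 0.21 (SE 1.63). Leaving out the library labelled WT 1 gave 3.58 for Tet1 and -0.56 for Tet2. Leaving out the one labelled WT 2 gave -0.12 and 1.99. Each fit that leaves out a library labelled WT has 1 library under that label.

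**Figure D5:**
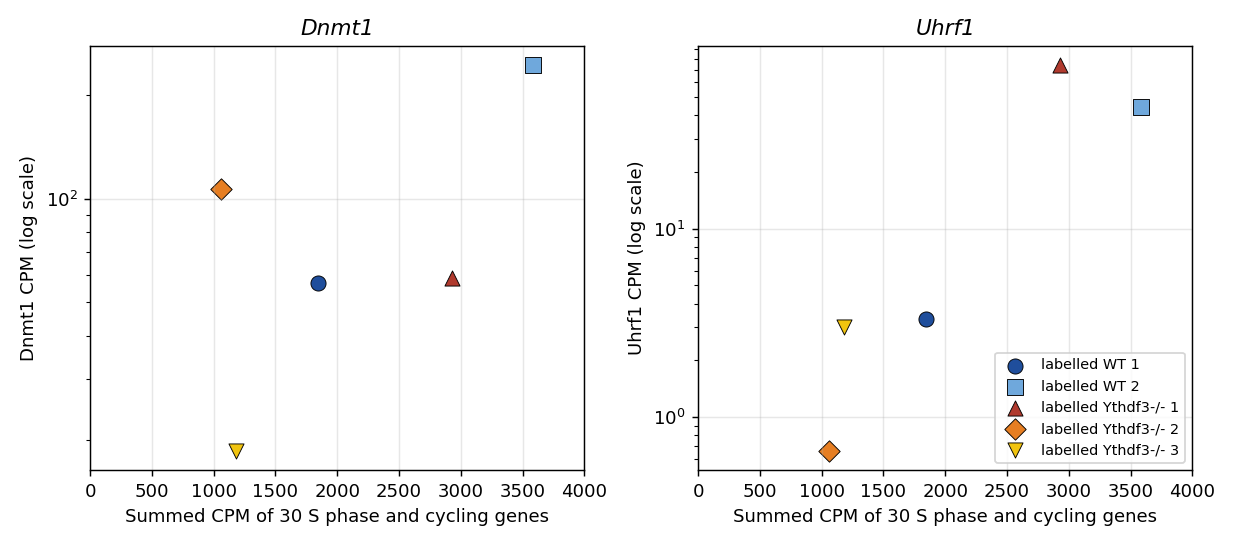
Dnmt1 (left) and Uhrf1 (right) in CPM (log axis) against the summed CPM of 30 S phase and cycling genes, 1 point per library. The 2 libraries with the highest sums, labelled WT 2 and Ythdf3-/- 1, are the 2 with Uhrf1 above 40 CPM; for Dnmt1 only that labelled WT 2 stands high.

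Because maintenance methylation is tied to replication, levels of cycling genes were read beside Dnmt1 and Uhrf1. The 30 S phase and cycling genes summed to 1841 and 3581 CPM with the WT label and to 2929, 1060 and 1180 CPM with the Ythdf3-/- label, in replicate order. The 2 highest sums belong to the 2 libraries rich in Uhrf1. Pcna, the replication clamp, had 528.2 and 449.8 CPM in these 2 libraries and between 111.7 and 134.4 CPM in the other 3. Mki67 had 115.6 and 30.5 CPM there and at most 3.3 CPM elsewhere. These are also the libraries with the most erythroid markers at 10 CPM (13 and 10 of 14), but their erythroid levels differed. The markers summed to 3198 CPM in that labelled WT 2 and 37880 CPM in that labelled Ythdf3-/- 1. Gata1 had 118.3 and 0.157 CPM in these 2 libraries. The part of cycling and erythroid levels in the Uhrf1 and Dnmt1 levels was not tested. Of the 28 list genes tested, 0 passed edgeR and 5 had an unadjusted p under 0.05, against 541 of all 11146 tested genes (4.85%). Under the Ythdf3-/- label 22 of the 28 were fitted lower, as were 5813 of the 11146. The list's median log2 fold change was -1.07, against -0.063 over all tested genes. Without the library labelled WT 2 the list's median was -0.19, against 0.22 over all tested genes. Without that labelled WT 1 it was -1.245, against 0.31. Leaving out Ythdf3-/- 1, 2 or 3 gave -2.13, -0.74 and -0.56, against -0.066, -0.10 and -0.097. With both WT 2 and Ythdf3-/- 1 left out, as chosen after seeing the data, the list's median was -1.71, against 0.085. The smallest p belonged to the cyclin genes Ccne1 and Ccnb2, with 2462 and 1653 counts in the library labelled WT 2, 34 and 102 in that labelled WT 1, and at most 2 in any other. Both were called by DESeq2 (adjusted p = 2.64e-06 for Ccne1 and 9.33e-06 for Ccnb2) and by edgeR with no filter on low counts (3.68e-05 and 0.00852). The stricter filter removed both, and under the remaining alternatives neither was called, with adjusted p from 0.103 to 1. Hells, a chromatin remodeller that helps DNA methylation, had 28.2 and 40.3 CPM with the WT label, against 60.9, 0 and 6.41 CPM.

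The remaining genes around the methylation cycle were examined in 6 lists, of which no member passed edgeR. Of 18 tested cofactors and regulators of the methyltransferases, 9 were fitted higher and 9 lower (median log2 fold change 0.028). Their smallest p belonged to Zfp57, a factor that guards imprints, and Nsd1, a histone H3 methyltransferase. Mean Nsd1 was 89.1 CPM with the WT label, 169.7 CPM with the other, whereas Zfp57 had 1 and 0 counts against 20, 1 and 124.

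Methyl-CpG binding proteins and their partners were fitted higher in 6 and lower in 8 of 14 (median -0.20). Mbd2 was low throughout, at between 3.66 and 11.7 CPM. Mbd3, a subunit of the NuRD complex, ranged from 27.6 to 192.2 CPM. Mbd5 and Mta2 had the smallest p of the list. Mta2, also of NuRD, had group means of 135.9 and 60.2 CPM, WT label first. For Mbd5, counts were 3 and 4 against 93, 0 and 333.

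Among CXXC proteins and TET partners, 3 of 9 were fitted higher and 6 lower (median -0.29). Cxxc1, which binds unmethylated CpG, had 109.3 and 127.3 CPM against 64.6, 0.22 and 42.3 CPM. Ddb1, an adaptor of ubiquitin ligases, averaged 86.4 and 198.3 CPM. In base excision repair, 10 of 15 were fitted higher and 5 lower (median 0.15). Tdg, the glycosylase that removes oxidised methylcytosine made by TET enzymes, had 5.29 and 5.13 CPM against 51.1, 15.2 and 8.84 CPM. Its groups did not overlap, but its log2 fold change of 2.18 had an SE of 2.16. Lig3 averaged 96.4 and 45.9 CPM, with 160.8 CPM in the library labelled WT 2.

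Methyl donor metabolism was balanced, with 9 of 18 tested genes fitted higher and 9 lower (median -0.019). Mat2a, which makes the methyl donor S-adenosylmethionine, lay between 362.4 and 655.4 CPM. Ahcy, which clears the product of methyl transfer, had between 29.6 and 96.6 CPM. Mtr, methionine synthase, had the smallest p, with counts of 18 and 2 against 245, 393 and 351 (log2 fold change 5.96, SE 2.19, edgeR adjusted p = 0.964). DESeq2 called Mtr (adjusted p = 0.00011), and the other alternatives gave adjusted p from 0.556 to 1. Amd1, which draws on S-adenosylmethionine for polyamines, averaged 152 and 62.8 CPM.

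Of the genes that supply 2-oxoglutarate, the cosubstrate of TET enzymes, or handle related metabolites, 10 of 19 were fitted higher and 9 lower (median 0.10). Idh2, the mitochondrial isocitrate dehydrogenase, had 174.8 and 101.1 CPM against 277, 401.5 and 283 CPM (log2 fold change 1.14, SE 0.45, edgeR adjusted p = 0.964). Its cytosolic counterpart Idh1 had 5.71 and 0.223 CPM against 73.5, 90.7 and 5.56 CPM, with overlap between the groups. Idh3a went the other way, averaging 168.4 CPM with the WT label against 79.9 CPM.

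The members lie on 8 chromosomes, and their counts are little exposed to overlapping genes. In GENCODE M21 (GRCm38), exons of Dnmt3a (chromosome 12, 3806007 to 3914443) share 133 bases with the antisense gene Dnmt3aos, which had 0 counts in all libraries. Exons of Tet2 (chromosome 3, 133463679 to 133545139) share 43 bases with an antisense gene, and those of the other 6 share none. Dnmt1 spans 20907209 to 20959888 on chromosome 9, and Dnmt3b 153649450 to 153687730 on chromosome 2. Uhrf1 and Uhrf2 lie at 56303321 to 56323486 on chromosome 17 and 30030513 to 30093722 on chromosome 19. Tet1 and Tet3 lie at 62804570 to 62908996 on chromosome 10 and 83362373 to 83459084 on chromosome 6. Dnmt3b has the close relative Dnmt3c next to it, and Dnmt3a has a processed pseudogene, Dnmt3a-ps1. How reads that match such copies were assigned is not given in the sources used here.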

How the data were processed

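Smart-seq2, which amplifies full-length cDNA and keeps neither strand nor molecule identifiers, was applied to 30 sorted cells per library, with paired 150-bp reads per the labels' protocols. Raw counts of reads per gene are what the authors deposited. Per the submitters' processing notes, HISAT2 2.2.1, HTSeq 0.12.4 and mm10 were used; annotation and multi-mapping handling are not stated in the sources used here. Counts were tested in R 4.3.3 with edgeR 4.0.16 (default expression filter, TMM scaling, robust quasi-likelihood fit, Benjamini-Hochberg adjustment over all 11146 tested genes at 0.05). The F statistic gave each log2 fold change its SE and 95% interval. DESeq2 1.42.0, limma 3.58.1 (voom), other scalings and filters, a replicate block and omission of each library were alternatives. Exact (Clopper-Pearson) 95% intervals of CPM cover counting error alone.

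The members and lists were chosen with earlier results of these data known. Named were the 8 members, Ythdf3, the 2 genes of smallest p in each of 7 lists, 12 further pathway genes (1 is not reported here) and, for each member, the 2 genes nearest in pattern; Gata1 was chosen after its values were seen. On simulated counts with the fitted spread, edgeR called 0 of 100 genes changed 4-fold and 33 of 100 changed 16-fold among 10573 tested, with 3 false calls. The common biological coefficient of variation was 1.26.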

Additional observations from a re-analysis of the deposited data

How the results depend on the processing

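No member was called under any of the 15 alternatives; the lowest adjusted p was 0.567 (Tet1, edgeR without the library labelled WT 1). Over all genes edgeR called 0 of 11146, DESeq2 594 of 13469 and edgeR with no filter on low counts 21 of 15240; leaving out 1 library gave 0 to 1, the 1 being LOC101056014 without the library labelled WT 1, a gene outside the naming rule. The fitted sign of 2 members, Uhrf2 and Tet3, held in all alternatives and that of 6 did not. For Tet3 this adds little, because its groups do not overlap. For Uhrf1 the value near 0 became 0.036 with RLE scaling, 0.0030 with upper quartile scaling, 0.11 with library totals only and 0.037 in DESeq2. Leaving out 1 library at a time gave ranges of -3.79 to 2.90 for Uhrf1, -2.10 to 0.079 for Dnmt1, -0.082 to 0.36 for Dnmt3a, -1.31 to 0.33 for Dnmt3b, -0.12 to 3.58 for Tet1 and -0.56 to 1.99 for Tet2. Among pathway genes they were -1.43 to 0.36 for Ahcy, -0.084 to 0.30 for Mat2a, -0.86 to 0.91 for Mbd2, -0.99 to 1.72 for Mbd3, -6.31 to 1.63 for Mki67, -1.56 to 0.72 for Pcna and -1.94 to 0.48 for Lig3. With limma voom Mbd2 was 0.097. The number of members without overlap was 1 with TMM-scaled totals and 1 to 4 without 1 library (33.3% to 52.6% of all tested genes). With both WT 2 and Ythdf3-/- 1 left out, as chosen after seeing the data, it was 5 (66% of all tested genes; 1 WT-labelled library remains), and Dnmt1 (0.083), Dnmt3b (0.12), Tet1 (-0.54), Mbd2 (0.77), Ahcy (0.29) and Lig3 (0.051) changed sign. Fewer libraries make overlap rarer by construction; other causes were not tested. Deviations of same-numbered libraries from their group means gave r = -0.00863 and 0.00353. With 2 libraries labelled WT, their deviations mirror each other. These values therefore cannot decide whether the numbers pair the mice. With a replicate block edgeR called 0 genes, and the members' median log2 fold change was -0.72. Replicate number 3 exists under the Ythdf3-/- label alone, so the block fit compares the labels within numbers 1 and 2 only. Uhrf2 (-6.87) had an unadjusted p under 0.05 there, as did 285 of 11146 tested genes. Uhrf2 also did so in edgeR without the library labelled Ythdf3-/- 3 (-6.85), as did 492 of 10541. With 5 libraries of 30 cells, differences of 4-fold were not detectable at the fitted spread.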

Other observations

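For each member the 2 most similar transcripts were sought among 8662 genes (no Gm, LOC or Rik names) with a mean of at least 10 CPM, by the root mean square difference of centred log2(CPM + 1) over the 5 libraries. Dnmt3a was nearest to Tmem147 (0.0695), which had 196 and 235 CPM under the WT label and 244, 235 and 282 CPM under the Ythdf3-/- label. Dnmt1 was nearest to Fam132a (0.22) and Kif20a (0.265). Fam132a had 80.5 and 464 CPM under the WT label, and 112, 187 and 43 CPM under the other. Kif20a had 10.2 and 66.8 CPM, and 12.7, 23.5 and 5.42 CPM. Uhrf1 was nearest to Akap11 (0.233) and Il6st (0.376), the receptor subunit gp130.

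Uhrf2 was nearest to Cyth3 (0.208), with 51.7 and 37.9 CPM, and 0.315, 0.11 and 53.6 CPM. Tet3 was nearest to Atf7 (0.182), with 80.8 and 44.5 CPM, and 0.157, 26.1 and 21.2 CPM. For Tet1, Tet2 and Dnmt3b the nearest were Tsen34 (0.134), Eps15l1 (0.163) and Dph3 (0.152). Among the 8 enzymes the closest pair, Dnmt3a and Dnmt3b, differed by 0.827. Each enzyme was compared there with 7 others only. The best of 8662 genes is closer than the best of 7 by construction. The distances therefore do not show whether the enzymes are unusually unlike each other.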
